A study of Mus musculus with 6 samples.

Results

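CircRNAs of 6 host genes, 5 from a list of neuronal and synaptic genes and Tulp4, which is not specific to neurons, were followed in microglia selected from the cortex of APP/PS1 mice and their WT controls. The set holds 9 circRNAs, of Dlg1, Csmd2, Rims2, Kcnma1, Rbfox3 and Tulp4, among 1927 circRNAs in the annotation used here and 13420 circRNAs tested. Of the 9, 6 (1 per gene) belong to a list of differentially expressed circRNAs drawn up in the study from these same arrays. These 6 were thus selected on their fold change and p-value between the genotypes on these arrays, and their values are given as a description, without p-values; nothing is read from counts of them past thresholds. The other 3, 1 of Rims2 and 2 of Kcnma1, came in through their host gene alone. Only that list and the first 1734 circRNAs of the annotation were at hand, so further circRNAs of the 6 genes may be among those tested and are not described.

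Cells were pulled from digested cortex of male mice, 6 months old, on magnetic beads with an antibody to CD11b, an integrin of myeloid cells. Of 6 samples, 3 came from WT mice of the C57BL/6J strain and 3 from APP/PS1 mice, a transgenic line that carries an APP with the Swedish mutation (APPswe). The promoter of this transgene is not given in the sources used here. RNA was treated with RNase R, which degrades linear RNA, and 1 sample was hybridized to each 1-colour circRNA array.

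Many exonic circRNAs form when the spliceosome joins the end of an exon to the start of an exon upstream of it. The product is a closed ring without a cap or a tail. Such rings resist exonucleases and are long-lived, and brain tissue is rich in circRNAs from genes that act at synapses. Because the arrays measure circRNAs, the values below say nothing of the messenger RNA of a host gene, and a host gene known from neurons can also be transcribed in other cells. In bulk samples of this kind, fewer cells of a type and less RNA per cell cannot be told apart.

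Each circRNA had 1 spot on an array. Levels are log2 of the background-subtracted spot signal after quantile normalization, and a difference of 1 on this scale is a doubling. Each probe has its own brightness, so a brighter spot does not mean more of that circRNA, and the brightest spots and summed signals named below describe signal only. Values of a genotype are given in the order of replicates 1, 2 and 3. Of 14236 circRNA probes, 87.6%, 94.8% and 94.0% were well above background in WT samples against 87.0%, 96.9% and 92.8% in APP/PS1 samples. WT arrays lay in row 1 and APP/PS1 arrays in row 2 of the slide layout, and the effects of genotype and of the row cannot be told apart. Only the row and column of an array were read here, not its slide. With 3 arrays per genotype, the number of arrays limits the precision.

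Dlg1 encodes SAP97, a membrane-associated guanylate kinase that anchors receptors and channels at synapses and at the membrane of many other cells. Its circRNA, circDlg1 (mmu_circRNA_017645), is an exonic circRNA of 423 nt listed at chr16:31796866-31812824 on the plus strand. The annotation names no genome build; of 1660 circRNAs whose transcript was found in RefSeq, 1626 (98.0%) lay inside that gene on GRCm38.p6, the 9 circRNAs described here among them. CircDlg1 had log2 levels of 5.97, 6.35 and 6.09 in WT samples against 8.19, 7.50 and 6.88 in APP/PS1 samples. All APP/PS1 samples lay above all WT samples, and APP/PS1 replicate 1 stood highest. The WT mean was 6.14 ± 0.20 and the APP/PS1 mean 7.52 ± 0.66 (SD, n = 3), a log2 difference of 1.39 (SE 0.31) or 2.61-fold. The spread among APP/PS1 samples, from 6.88 to 8.19, was wider than that among WT samples.

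Promoters of the host genes are shown as a description, and a link between their sequence and the values was not tested. RefSeq windows of 300 bases on GRCm38.p6 were found for Dlg1, Kcnma1, Rbfox3 and Tulp4. They were searched on both strands for an E-box (CACGTG), a cAMP response element (TGACGTCA) and a TATA box (TATAAA), which occur in 7.15%, 1.79% and 13.6% of 32817 promoter windows. Capitals mark a match, which is only a description of these letters. The first listed window of each of 3 genes follows, at chr16:31663685-31663984 on the plus strand for Dlg1, at chr14:24004156-24004455 on the minus strand for Kcnma1 and at chr17:6106580-6106879 on the plus strand for Tulp4.
Dlg1 promoter: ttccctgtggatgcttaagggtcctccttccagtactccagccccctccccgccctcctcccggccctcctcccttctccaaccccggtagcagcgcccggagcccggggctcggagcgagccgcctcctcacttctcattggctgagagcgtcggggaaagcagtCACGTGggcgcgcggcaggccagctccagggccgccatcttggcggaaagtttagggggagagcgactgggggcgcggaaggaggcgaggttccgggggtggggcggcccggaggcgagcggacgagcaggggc
Kcnma1 promoter: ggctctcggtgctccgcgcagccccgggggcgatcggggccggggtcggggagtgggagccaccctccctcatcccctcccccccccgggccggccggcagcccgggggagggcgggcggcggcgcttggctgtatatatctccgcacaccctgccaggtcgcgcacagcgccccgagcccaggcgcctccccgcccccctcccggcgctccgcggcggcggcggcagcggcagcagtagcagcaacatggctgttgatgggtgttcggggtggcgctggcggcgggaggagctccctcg
Tulp4 promoter: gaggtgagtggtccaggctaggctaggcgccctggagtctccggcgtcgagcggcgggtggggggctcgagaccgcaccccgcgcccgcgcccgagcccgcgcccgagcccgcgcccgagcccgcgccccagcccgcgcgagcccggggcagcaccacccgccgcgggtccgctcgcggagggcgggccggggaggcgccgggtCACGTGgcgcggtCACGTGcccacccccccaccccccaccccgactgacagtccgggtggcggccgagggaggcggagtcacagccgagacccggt
The shown windows of Dlg1 and Tulp4 hold the E-box letters and that of Kcnma1 holds none of the searched motifs. Of the 4 Dlg1 windows, 2 hold the E-box, 1 other holds the TATA box letters and 1 holds none, and the second of the 2 Tulp4 windows holds none. The Rbfox3 window, at chr11:118760992-118761291 on the minus strand, also holds none of them, and on GRCm38.p6 it lies inside the span of the Rbfox3 circRNA.

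**Figure D1:**
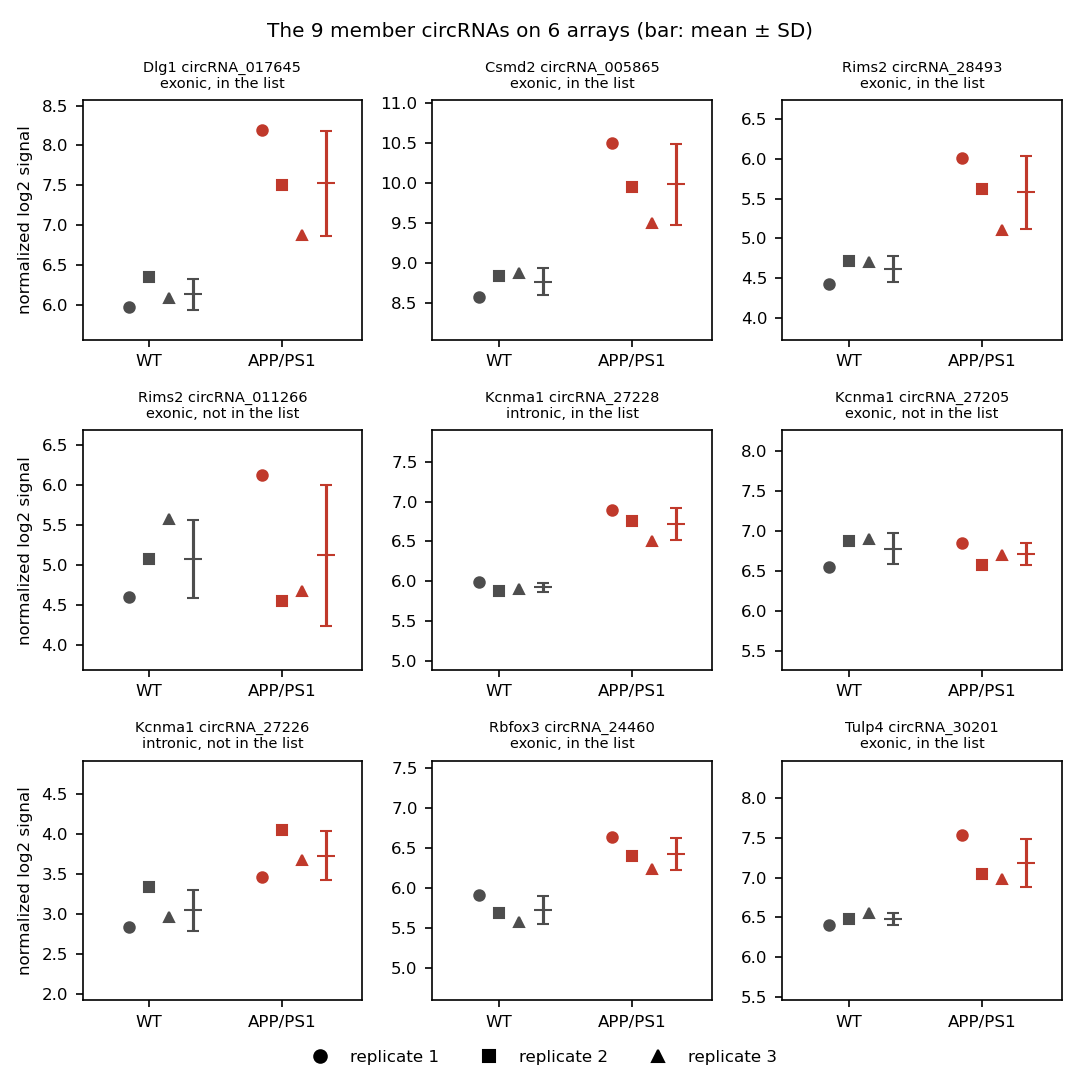
Normalized log2 signal of the 9 circRNAs in the 3 WT (grey) and 3 APP/PS1 (red) samples, with a symbol per replicate and bars for the mean ± SD; every panel spans 3 log2 units. APP/PS1 and WT samples are apart in 7 panels and overlap for Rims2 circRNA_011266 and Kcnma1 circRNA_27205.

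Rims2 encodes a scaffold of the presynaptic active zone that tethers vesicles and calcium channels. Its listed circRNA, mmu_circRNA_28493, is exonic with 1448 nt, at chr15:39292102-39437922 on the plus strand. Log2 levels were 4.43, 4.72 and 4.71 in WT samples against 6.01, 5.62 and 5.10 in APP/PS1 samples. The genotypes did not overlap, and APP/PS1 replicate 3 came closest to the WT samples. The mean was 4.62 ± 0.16 in WT and 5.58 ± 0.46 in APP/PS1 samples (SD, n = 3), a log2 difference of 0.95 (SE 0.23). It was 0.63 on the deposited values and 0.41 with normexp and an offset of 50, the latter under a fold change of 1.5.

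The second Rims2 circRNA, mmu_circRNA_011266, is exonic with 516 nt and lies downstream in the same gene, at chr15:39566943-39616510. Its log2 levels were 4.59, 5.07 and 5.57 in WT samples against 6.13, 4.55 and 4.67 in APP/PS1 samples. Here the genotypes overlapped, since APP/PS1 replicate 1 was the highest of the 6 samples and APP/PS1 replicate 2 the lowest. The log2 difference was 0.04 (SE 0.44, adjusted p = 0.978 with limma). Without APP/PS1 replicate 1 it was -0.47 and without WT replicate 1 it was -0.21, so its direction rests on single arrays. With arrays scaled to their 75th percentile it was -0.03.

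Csmd2 encodes a large transmembrane protein with CUB and sushi domains that is found at synapses. Its circRNA, mmu_circRNA_005865, is exonic with 647 nt, at chr4:128297186-128338697 on the plus strand. Log2 levels were 8.57, 8.84 and 8.88 in WT samples against 10.51, 9.95 and 9.50 in APP/PS1 samples. As for circDlg1, APP/PS1 replicate 1 was highest, replicate 3 was lowest of its genotype, and the genotypes did not overlap. The WT mean of 8.76 ± 0.17 and the APP/PS1 mean of 9.99 ± 0.51 (SD, n = 3) differed by 1.22 on the log2 scale (SE 0.25), or 2.34-fold.

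Kcnma1 encodes the pore-forming subunit of the BK channel, a potassium channel opened by calcium and depolarization in neurons, smooth muscle and other cells. Of its 3 circRNAs annotated here, mmu_circRNA_27228 is in the list. It is annotated as intronic, at chr14:23803140-23992282 on the minus strand, and its listed length of 189143 nt is the whole span between its ends. Log2 levels were 5.99, 5.88 and 5.90 in WT samples against 6.90, 6.75 and 6.51 in APP/PS1 samples. The samples of each genotype lay close together and the genotypes did not overlap. The mean was 5.92 ± 0.06 in WT and 6.72 ± 0.20 in APP/PS1 samples (SD, n = 3), a log2 difference of 0.80 (SE 0.13). It was 0.59 on the deposited values, and 0.58 and 0.44 with normexp and offsets of 16 and 50, both under a fold change of 1.5.

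The exonic Kcnma1 circRNA mmu_circRNA_27205, with 1420 nt at chr14:23309040-23386353, had log2 levels of 6.55, 6.87 and 6.90 in WT samples against 6.85, 6.57 and 6.70 in APP/PS1 samples. All APP/PS1 values fell within the WT range. The log2 difference was -0.06 (SE 0.14, adjusted p = 0.861 with limma), less than the spread between samples.

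The third Kcnma1 circRNA, mmu_circRNA_27226, is annotated as intronic with 5873 nt at chr14:23797429-23803301, and its span shares 162 bases with that of mmu_circRNA_27228. Log2 levels were 2.84, 3.34 and 2.96 in WT samples against 3.46, 4.06 and 3.68 in APP/PS1 samples. The genotypes did not overlap, but replicate 2 was highest in both and the gap between WT replicate 2 and APP/PS1 replicate 1 was narrow. The spot was dim: it was well above background on 5 of 6 arrays, WT replicate 1 being the exception, and its median signal there was 37.0 over a local background of 17.0. The log2 difference was 0.69 (SE 0.20, adjusted p = 0.155 with limma). It was 0.58 without WT replicate 1, 0.52 without APP/PS1 replicate 2 and 0.15 on the deposited processed values, each under a fold change of 1.5.

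Rbfox3 encodes NeuN, a splicing regulator used as a marker of neuronal nuclei. Its circRNA, mmu_circRNA_24460, is the shortest of the 9, exonic with 284 nt, at chr11:118610159-118811416 on the minus strand. Log2 levels were 5.91, 5.69 and 5.57 in WT samples against 6.64, 6.40 and 6.24 in APP/PS1 samples. In both genotypes replicate 1 was highest and replicate 3 lowest, with all APP/PS1 samples above all WT samples. The mean was 5.72 ± 0.18 in WT and 6.43 ± 0.20 in APP/PS1 samples (SD, n = 3), a log2 difference of 0.70 (SE 0.15). It was 0.58 with the median spot signal and 0.46 with normexp and an offset of 50, both under a fold change of 1.5.

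Tulp4, a tubby-like protein gene, is not specific to neurons. Its circRNA, mmu_circRNA_30201, is exonic with 774 nt, at chr17:6176829-6207057 on the plus strand. Log2 levels were 6.40, 6.48 and 6.55 in WT samples against 7.53, 7.05 and 6.98 in APP/PS1 samples. WT samples lay close together, and APP/PS1 replicate 1 stood above replicates 2 and 3. The mean was 6.48 ± 0.07 in WT and 7.19 ± 0.30 in APP/PS1 samples (SD, n = 3), a log2 difference of 0.71 (SE 0.16). The log2 difference was 0.54 without APP/PS1 replicate 1 and 0.52 with normexp and an offset of 50, both under a fold change of 1.5.

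**Figure D2:**
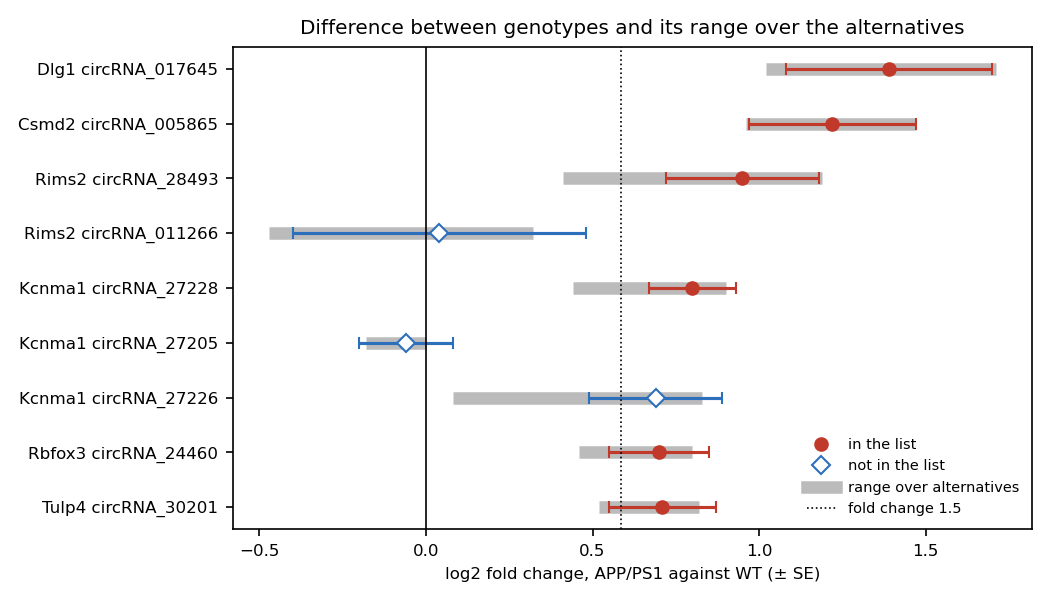
Log2 fold change of APP/PS1 against WT samples with its SE for the 9 circRNAs (filled in the list, open outside it). Grey bars give the range over all alternatives, those with an array left out included. The dotted line marks a fold change of 1.5. The bars of Dlg1 and Csmd2 stay above the dotted line, from 1.02 to 1.71 and from 0.96 to 1.47, and those of Rims2 circRNA_011266 and Kcnma1 circRNA_27205 reach 0 or cross it.

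With thresholds of 1.5 for the fold change and 0.05 for the unadjusted p, 7 of the 9 circRNAs were higher in APP/PS1 samples and 0 were lower, where 3.15% of the 13420 circRNAs tested were higher and 2.26% lower, 5.41% in all. All APP/PS1 samples lay above all WT samples for the same 7, as for 12.3% of the circRNAs tested, and the genotypes were apart in either direction for 25.1%. These thresholds and this contrast made the list, so nothing is read from the count of the 6 listed circRNAs. No circRNA of the 13420 passed an adjusted p of 0.05 with limma, while 2384 had an unadjusted p under 0.05. After adjustment, 4 were left with the methods' t-test, 2 with that test on the deposited values and 2 with limma on normexp values with an offset of 50. Scaling to the 75th percentile in place of quantile normalization turned the counts from 423 higher and 303 lower to 331 and 422, and leaving out APP/PS1 replicate 1 turned them to 362 and 519. Over the 6 listed circRNAs the median log2 difference was 0.88, against 0.84 over the 140 other listed circRNAs with a positive difference.

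Near the fold threshold of the list, the fold computed here from the deposited processed values was 1.504 for Kcnma1 mmu_circRNA_27228, 1.552 for Rims2 mmu_circRNA_28493, 1.566 for Rbfox3 and 1.580 for Tulp4. These 4 lay just inside the threshold, and Dlg1 and Csmd2 lay well inside it at 2.470 and 2.494. The 3 circRNAs that are not in the list were well short of it, with Kcnma1 mmu_circRNA_27226 at 1.113, Rims2 mmu_circRNA_011266 at 1.057 and Kcnma1 mmu_circRNA_27205 at 0.91.

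**Figure D3:**
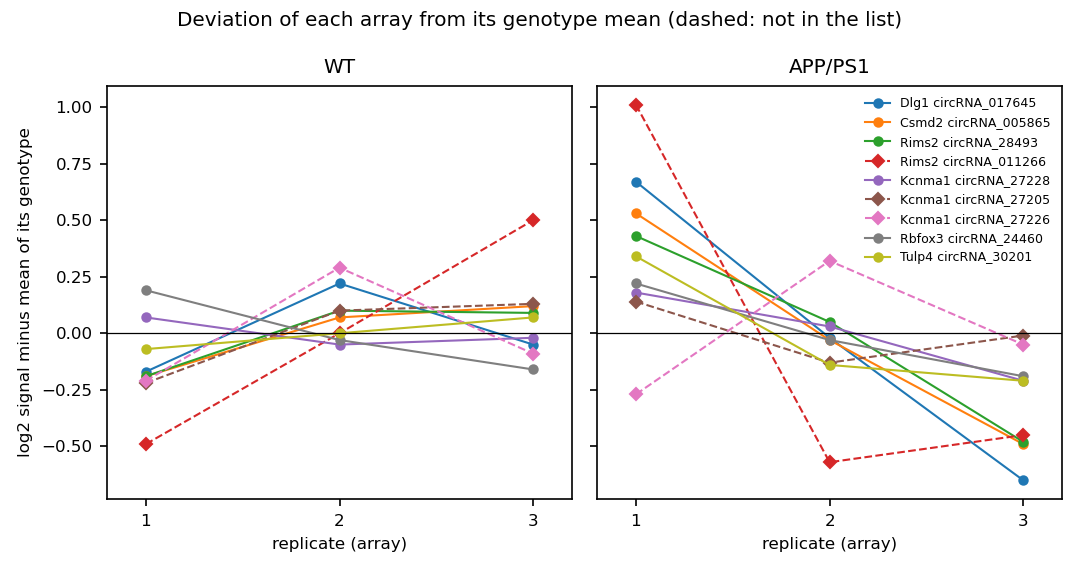
Log2 signal of each circRNA on each array minus the mean of its genotype, in WT (left) and APP/PS1 samples (right); lines join the values of 1 circRNA and carry no order in time, and dashed lines mark circRNAs that are not in the list. In APP/PS1 samples every solid line has its highest point at replicate 1 and its lowest at replicate 3.

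The 6 listed circRNAs moved together across the APP/PS1 samples. Replicate 1 was highest and replicate 3 lowest for Dlg1, Csmd2, Rims2 mmu_circRNA_28493, Kcnma1 mmu_circRNA_27228, Rbfox3 and Tulp4, that is, 6 of 6. The distance between the highest and lowest APP/PS1 sample differed among them, with 1.31 for Dlg1, 1.02 for Csmd2, 0.91 for Rims2, 0.55 for Tulp4, 0.40 for Rbfox3 and 0.39 for Kcnma1 on the log2 scale. This order was not particular to these genes: it held for 120 of the 140 other listed circRNAs with a positive difference (85.7%) and for 2489 of 13407 circRNAs with values on all arrays (18.6%). None of the 3 circRNAs outside the list had it, since replicate 1 was highest but replicate 2 lowest for Rims2 mmu_circRNA_011266 and Kcnma1 mmu_circRNA_27205, and replicate 2 was highest for Kcnma1 mmu_circRNA_27226. Before normalization between arrays, replicate 3 was lowest for 6 of 6 listed circRNAs, but replicate 1 was highest only for Dlg1 and Tulp4, so the full order was seen in 2 of 6, against 19 of the 140 (13.6%) and 824 of the 13407 (6.15%).

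In WT samples the listed circRNAs did not share an order. Replicate 1 was lowest for Dlg1, Csmd2, Rims2 mmu_circRNA_28493 and Tulp4, and highest for Kcnma1 mmu_circRNA_27228 and Rbfox3. All 3 circRNAs outside the list also had their lowest WT value in replicate 1, which made it lowest for 7 of 9, against 31.5% of all circRNAs. It was also lowest for 92 of the 140 other listed circRNAs with a positive difference (65.7%) and for 255 of 417 others past both thresholds and higher (61.2%). WT replicate 1 and APP/PS1 replicate 1 had the fewest probes well above background and both lay in column 1 of the slide layout. The part of slide position or signal in these orders was not tested.

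Without APP/PS1 replicate 1, the array on which they stood highest, the log2 differences of the listed circRNAs were 1.05 for Dlg1, 0.96 for Csmd2, 0.74 for Rims2, 0.71 for Kcnma1, 0.59 for Rbfox3 and 0.54 for Tulp4. Leaving out the array on which they stood highest makes each difference smaller. Since the genotypes were apart for each listed circRNA, each difference also stays positive. Nothing is read from either.

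Differences were unequal among circRNAs of the same host gene. Between genotypes, the log ratio of Rims2 mmu_circRNA_28493 to mmu_circRNA_011266 within an array was -0.15, -0.35 and -0.87 in WT samples against -0.13, 1.07 and 0.42 in APP/PS1 samples. The difference was 0.91, and with an array left out it lay between 0.61 (without APP/PS1 replicate 2) and 1.21 (without APP/PS1 replicate 1). The log ratio of Kcnma1 mmu_circRNA_27228 to mmu_circRNA_27205 was 0.86 higher in APP/PS1 samples, and between 0.78 and 1.01 higher with an array left out. For both intronic Kcnma1 circRNAs, whose spans overlap, the difference was 0.11 and turned to -0.11 without APP/PS1 replicate 1 and to -0.06 without WT replicate 2, so no direction is given. Leaving out arrays was added here after the values had been seen. A ratio shows unequal change and not which circRNA changed, and these differences were not tested because the first circRNA of each pair was chosen for its difference.

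Profiles over the 6 arrays, each circRNA centred on its own mean, were compared with that of circDlg1 by the root mean square difference of log2 values. The nearest 5 circRNAs among the 1918 annotated circRNAs outside the set came from Rad54b, Ankrd42, Mnat1, Eif2ak4 and Hif1a. Their differences lay between 0.06 and 0.10, and all 5 are in the list. Among the set, Csmd2 was nearest to circDlg1 at 0.15, followed by Rims2 mmu_circRNA_28493 at 0.26, Kcnma1 mmu_circRNA_27228 and Tulp4 at 0.42 each and Rbfox3 at 0.47. Kcnma1 mmu_circRNA_27226 stood at 0.59, Rims2 mmu_circRNA_011266 at 0.78 and Kcnma1 mmu_circRNA_27205 at 0.81, the latter pair close to the median of 0.84 over the 1918. These distances span both genotypes, so the difference for which the listed circRNAs were chosen enters them, and nothing is read from how near the listed circRNAs lie.

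**Figure D4:**
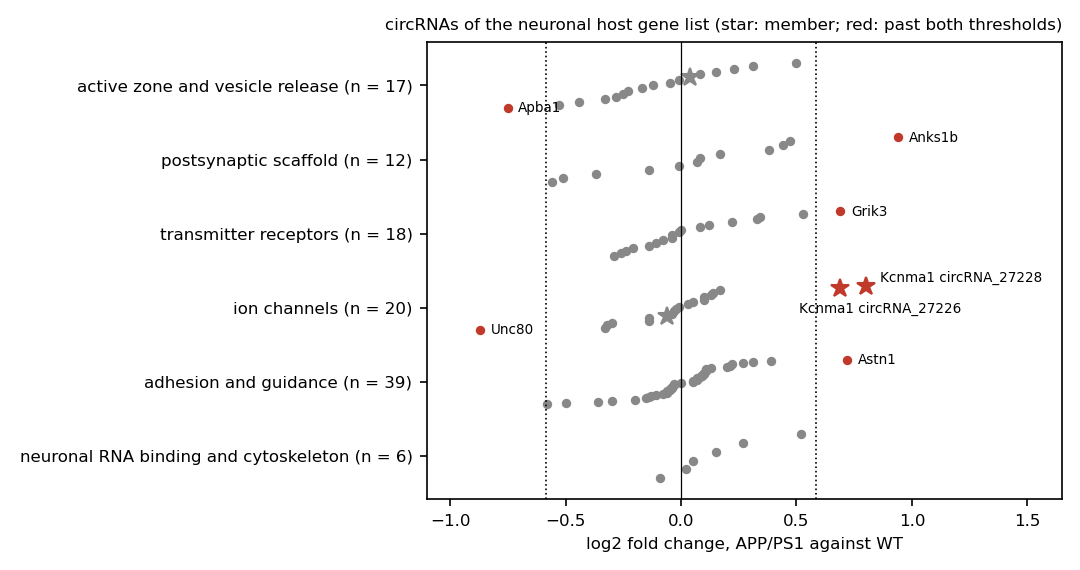
Log2 fold change of APP/PS1 against WT samples for 112 circRNAs of a list of neuronal host genes, by role, with stars for the 4 circRNAs of Kcnma1 and Rims2 described here, red for those past both thresholds (fold change of 1.5, dotted lines; unadjusted p of 0.05). Most points lie between the dotted lines on both sides of 0, and 5 are past the thresholds to the right and 2 to the left.

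A wider list of neuronal host genes had a median difference close to 0. The list holds 150 genes in 6 roles and was read in 1734 circRNAs annotated in order of probe, among which it had 112 circRNAs of 91 genes. Of the 112, 5 were higher in APP/PS1 samples (4.46%) and 2 lower (1.79%), where 2.88% of the 1734 were higher and 1.9% lower. Both intronic Kcnma1 circRNAs are among the 5, and without the circRNAs described here 3 of 108 were higher (2.78%). The median log2 difference of the 108 was -0.01, against -0.02 over the 1734. Their summed signal was 36298, 35878 and 36049 in WT samples against 34323, 37120 and 39276 in APP/PS1 samples, with APP/PS1 samples on both sides of the WT samples. The brightest of them was mmu_circRNA_018793 of Ctnnd2, the neuronal adhesion protein delta-catenin, with log2 levels of 12.67 ± 0.05 in WT and 12.77 ± 0.22 in APP/PS1 samples (SD, n = 3).

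Host genes listed for microglia and other myeloid cells were checked in the same 1734 circRNAs, where 12 of 33 listed genes had 14 circRNAs. How specific these genes are to such cells was not tested. None of the 14 passed both thresholds with limma, 2 had an unadjusted p under 0.05 (306 among the 1734), and their median log2 difference was -0.10. Their summed signal was 4495, 5358 and 5200 in WT samples against 5423, 5584 and 5486 in APP/PS1 samples, and most of it came from mmu_circRNA_23053 of Rel, a subunit of NF-kappaB. Without this circRNA, a sum added after the values had been seen, it was 1484, 1472 and 1405 in WT samples against 1341, 1233 and 1440 in APP/PS1 samples. Of the 14, 4 had a positive difference (28.6%), against 818 of the 1734 (47.2%). Since circRNA signals of different genes are not on 1 scale, the arrays do not show how much RNA of neurons or of microglia the samples held, and the part of either in the values of Dlg1, Csmd2, Rims2, Kcnma1, Rbfox3 and Tulp4 was not tested.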

How the data were processed

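CircRNAs were measured on 6 Agilent 1-colour arrays, and the labels give the genotype by which samples were grouped. The transgenic line is described only in part, and its remaining allele detail is not reported here. The authors deposited scanner output, in which each spot has an intensity, made with Feature Extraction 11.0.1.1 according to the submitters' processing notes. They also deposited a processed table on the log2 scale, with 13420 probes. The study's methods state quantile normalization with limma for that table; its background correction is not given in the sources used here.

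Processed spot signals, already background-subtracted by the scanner software, were log2 transformed. Spots with an outlier mark were removed (at most 6 on an array), and no saturation was marked. Probes that stood well above background on 3 or more of the 6 arrays were quantile normalized, and genotypes were compared with lmFit and eBayes (R 4.3.3, limma 3.58.1) with Benjamini-Hochberg adjustment over all 13420. The steps were tested on simulated data. Thresholds were 1.5 for the fold change and 0.05 for the unadjusted p. An exact permutation test of 3 against 3 samples cannot go below 0.1. The software's error of a processed signal was 10% to 12.9% for 8 of the circRNAs described and 11.7% to 28% for Kcnma1 mmu_circRNA_27226.

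Names, host genes, types, lengths and positions came from the study's annotation by probe. Its list of differentially expressed circRNAs held 218 circRNAs, and the first 1734 circRNAs of its full annotation were used here. Columns with the authors' fold changes and p-values in these sheets were not used. The members and the gene lists were chosen with earlier results of these data known. Genes named are the members; the listed circRNAs of the astrocyte and oligodendrocyte lists; other circRNAs of genes already named; the circRNAs past both thresholds and the brightest circRNA of each neuronal role and cell type list; and the 5 profiles nearest circDlg1. Promoters are RefSeq windows. Alternatives covered normalization, correction for background, filtering of dim probes, the test, the deposited log2 values, the replicate number as a block and leaving out each array; those for the order of the arrays, the summed signals and the ratios within a host gene were added after the data had been seen.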

Additional observations from a re-analysis of the deposited data

How the results depend on the processing

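Of the 9 circRNAs, 7 passed both thresholds and were higher, where 3.15% of the 13420 circRNAs tested did so. These thresholds made the list that holds 6 of the 9, so nothing is read from this count. Between 5 and 7 passed under the alternatives except normexp with an offset of 50. That offset shrinks differences of dim spots and left 2, Dlg1 and Csmd2. Dlg1 and Csmd2 kept their direction and their side of the thresholds under all 18 alternatives. Rims2 mmu_circRNA_28493 fell short under 1 alternative, Kcnma1 mmu_circRNA_27228, Rbfox3 and Tulp4 under 2 each and Kcnma1 mmu_circRNA_27226 under 7 of 17, and it gave no value with the filter on all 6 arrays. Rims2 mmu_circRNA_011266 turned to -0.03 with 75th percentile scaling and lay between -0.47 and 0.32 over the left-out arrays (-0.21 without WT replicate 1, -0.47 without APP/PS1 replicate 1), and Kcnma1 mmu_circRNA_27205 lay between -0.18 and 0.00, with 0.00 without APP/PS1 replicate 2. The order of the APP/PS1 arrays held for 6 of 6 listed circRNAs under 8 alternatives and for 2 before normalization.

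Over all circRNAs, 423 were higher and 303 lower. These counts were 197 and 90 with the median spot signal, 124 and 60 with normexp and an offset of 50, 206 and 103 with an offset of 16, 214 and 104 with the deposited values, and 146 and 72 with the methods' t-test on them. With 75th percentile scaling they were 331 and 422, which turned the share of higher among these circRNAs from 58.3% to 44.0%. Without APP/PS1 replicate 1 they were 362 and 519 (41.1% higher), and without any other array 384 to 541 higher and 235 to 396 lower. For the neuronal list, 5 were higher and 2 lower; 3 were higher with normexp at either offset, and 3 to 6 with an array left out, 3 of them without APP/PS1 replicate 1. Lower were 4 with 75th percentile scaling, 1 with the methods' t-test on either set of values, and 2 to 4 with an array left out, 4 of them without WT replicate 2. Causes were not tested.

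Deviations of same-numbered samples correlated across circRNAs at -0.25, -0.08 and -0.22, so no positive correlation was seen. Deviations from means of so few arrays cannot show whether same-numbered samples were handled together. With the replicate number as a block, 444 circRNAs were higher and 305 lower, 7 of the 9 passed, and 5 and 2 of the neuronal list. Dim spots, such as that of Kcnma1 mmu_circRNA_27226, limit what these arrays can show.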

Other observations

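Single circRNAs of other neuronal host genes also passed both thresholds among the 1734 circRNAs with limma. Of the circRNAs named here, mmu_circRNA_010003, mmu_circRNA_005340, mmu_circRNA_21105, mmu_circRNA_20282 and mmu_circRNA_41597 are in the list of 218 and were thus selected on these arrays. The circRNA mmu_circRNA_010003 of Anks1b, a protein of the postsynaptic density, had log2 levels of 8.12, 8.24 and 8.32 in WT samples against 9.49, 9.23 and 8.78 in APP/PS1 samples, a difference of 0.94 (SE 0.19). Its APP/PS1 samples had the same order as the listed circRNAs, with replicate 1 highest and replicate 3 lowest. Other Anks1b circRNAs among the 1734 differed by 0.44 (mmu_circRNA_002573), -0.14 (mmu_circRNA_22415) and -0.51 (mmu_circRNA_22404), and mmu_circRNA_005340, held through the list alone, by 0.97. The circRNA mmu_circRNA_21105 of Astn1, an adhesion protein of migrating neurons, differed by 0.72 (SE 0.18) and mmu_circRNA_37589 of the kainate receptor subunit Grik3 by 0.69 (SE 0.22), both higher in all APP/PS1 samples, while mmu_circRNA_21107 of Astn1 differed by -0.13 and mmu_circRNA_37590 of Grik3 by 0.12. Lower in all APP/PS1 samples were mmu_circRNA_20282 of Unc80, a subunit of the NALCN channel complex, at -0.87 (SE 0.21) and mmu_circRNA_32328 of Apba1, a Mint adaptor protein, at -0.75 (SE 0.25). The circRNA mmu_circRNA_41597 of its relative Apba2, the brightest of the active zone list, differed by 0.50 (SE 0.11), under the fold threshold. By role and among the 1734 alone, 1 of 12 circRNAs of postsynaptic scaffolds was higher, 1 of 39 of adhesion and guidance genes, 1 of 18 of transmitter receptors and 2 of 20 of ion channels, with 1 ion channel circRNA and 1 of 17 of the active zone lower and none of the 6 of neuronal RNA binding and cytoskeleton genes past the thresholds in either direction. Over the 1734, 2.88% were higher and 1.9% lower, and both higher ion channel circRNAs are those of Kcnma1 already described. The list of 218, chosen on these arrays, holds 18 circRNAs of the neuronal host genes, 13 with a positive difference, against 146 of the 218. Of the 18, 5 are circRNAs described above, all positive, which leaves 8 of 13, and 3 of the 18 are of neuronal RNA binding and cytoskeleton genes, 1 positive and 2 negative. The brightest circRNAs of the receptor, channel and cytoskeleton lists, mmu_circRNA_38753 of Gabrb1, mmu_circRNA_41362 of Kcnc1 and mmu_circRNA_45779 of Dcx, differed by 0.08 (SE 0.20), -0.01 (SE 0.14) and 0.02 (SE 0.20).

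Host genes listed for other cell types were also read, and how specific they are to these cells was not tested. None of 8 circRNAs of astrocyte genes, 5 of oligodendrocyte genes and 3 of endothelial and mural genes passed both thresholds with limma. Of these circRNAs, 0 had an unadjusted p under 0.05. The median log2 differences were -0.03, -0.16 and -0.18. The list of 218, chosen on these arrays, holds 1 further circRNA of the astrocyte genes, mmu_circRNA_29478 of Atp13a4, at 1.37, and 1 of the oligodendrocyte genes, mmu_circRNA_42368 of Fgfr2, at 0.77, both higher in APP/PS1 samples, and none of the endothelial genes. Summed signals of the astrocyte list were 2195, 1892 and 1877 in WT samples against 1749, 2162 and 2285 in APP/PS1 samples. Those of the oligodendrocyte list were 215, 234 and 222 in WT and 185, 210 and 214 in APP/PS1 samples, and those of the endothelial list 174, 186 and 164 in WT and 149, 162 and 168 in APP/PS1 samples. For astrocytes and endothelial cells the genotypes overlapped, while the oligodendrocyte sums were all lower in APP/PS1 samples by a small margin, which did not hold without the brightest circRNA of that list (83, 91 and 99 in WT against 82, 103 and 86 in APP/PS1 samples). The brightest circRNAs of these lists, mmu_circRNA_32403 of Glis3, mmu_circRNA_36121 of Ugt8a and mmu_circRNA_29545 of Tfrc, differed by 0.15 (SE 0.18), -0.24 (SE 0.13) and 0.06 (SE 0.11).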
